A study of Bos taurus with 13 samples.

Results

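The miR-378 family of the cow was followed through extracellular vesicles (EVs) of follicular fluid. Its members were taken by miRNA name. They are bta-miR-378c, bta-miR-378 and bta-miR-378b, 3 of the 311 miRNAs listed in any of the 13 small RNA libraries. All 3 were listed for all 5 groups, as were 262 miRNAs in total. Fluid of large follicles was drawn by ovum pick-up and pooled, so each library is a pool. The transient cows (TCs) were in negative energy balance at weeks 5 and 6 after calving (11 cows, 3 pools) and in positive balance at weeks 9 and 10 (7 cows, 3 pools). Always negative cows (ANCs; 2 cows, 2 pools) and always positive cows (APCs; 2 cows, 2 pools) were sampled at weeks 5 and 6, and non-lactating heifers (8 animals, 3 pools), all in positive balance, served as controls. How the animals of a group were divided over its pools, whether the 7 TCs of weeks 9 and 10 were among the 11 of weeks 5 and 6, and the ages of the animals are not given in the sources used here. Pools of the same cows may thus be counted as separate, and p-values measure the spread between pools.

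miRNAs are short RNAs that lower the translation and stability of mRNAs matched by their seed. The best known gene of the miR-378 family lies inside PPARGC1B, which encodes a coactivator of genes for mitochondria and fat burning, and the family is studied as a regulator of energy use. In granulosa and cumulus cells of the follicle, miR-378 is known to lower aromatase (CYP19A1), the enzyme that makes oestradiol from androgens. The mature members have closely similar sequences, so reads may be divided between them with error, and their levels are uncertain to that extent.

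The RefSeq annotation (ARS-UCD2.0, used for names and neighbours only) lists the precursor genes apart from each other. MIR378-1, on chromosome 7, lies within the span of PPARGC1B. MIR378-2, on chromosome 4, lies within CALCR, the calcitonin receptor gene, and MIR378C, on chromosome 24, within ZNF521, which encodes a zinc finger protein. MIR378B, on chromosome 15, lies within no other gene of the annotation. The annotation also holds MIR378D, on chromosome 19 within MSI2, but no bta-miR-378d was listed in the libraries. Strand was not compared, and a mature miR-378 read does not tell which of the genes named for it was its source.

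The members differed widely in level. bta-miR-378 averaged 5400 CPM (counts per 1e6 reads, with all 13 libraries on a common TMM scale) and took 39th place of 262 miRNAs. bta-miR-378c averaged 278 CPM, in 131st place, and bta-miR-378 stood 19.4-fold above it. bta-miR-378b averaged 19.3 CPM, in 247th place. The libraries held 145030 to 421435 reads (median 327359), and the members took 0.554%, 0.0277% and 0.002% of the reads. Per library, bta-miR-378 had 484 to 3069 reads, bta-miR-378c 25 to 141 and bta-miR-378b 1 to 15, so counting error alone is large for bta-miR-378b. Libraries of a group differed by far more than sampling noise, so none was a copy of another of its group. Whether pools shared cows or fluid cannot be told from this.

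bta-miR-378 was at its highest mean in TCs. At weeks 5 and 6 the TC pools stood at 5580, 7870 and 5240 CPM (mean 6230 ± 1430, SD, n = 3). At weeks 9 and 10 they stood at 7460, 6990 and 6710 CPM (mean 7060 ± 380, SD, n = 3). All 6 TC pools except pool 3 at weeks 5 and 6 were above every pool of the other groups. The 2 ANC pools stood at 4780 and 3240 CPM (mean 4010 ± 1090, SD). The APC pools were close together at 4470 and 4520 CPM (mean 4490 ± 31.7, SD, n = 2). Heifers stood at 4870, 5280 and 3220 CPM (mean 4450 ± 1090, SD, n = 3), a range that enclosed both APC pools.

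bta-miR-378c was ordered differently. TCs at weeks 5 and 6 stood at 363, 401 and 429 CPM (mean 398 ± 33.1, SD, n = 3). At weeks 9 and 10 TCs stood at 202, 351 and 268 CPM (mean 274 ± 75.0, SD, n = 3), all under the lowest pool of weeks 5 and 6. ANCs stood at 182 and 167 CPM (mean 175 ± 10.5, SD, n = 2), the lowest mean of the 5 groups. The APC pools lay apart, at 206 and 417 CPM (mean 312 ± 150, SD, n = 2), and pool 2 alone was within the range of TCs at weeks 5 and 6. Heifers stood at 257, 177 and 197 CPM (mean 210 ± 41.6, SD, n = 3), all below that range.

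bta-miR-378b was detected in all 13 libraries, but at levels near the floor of 3 reads, which is worth 7.3 to 20.1 CPM depending on the library. TCs had 5, 9 and 4 reads at weeks 5 and 6 (mean 18.8 CPM) and 15, 5 and 15 at weeks 9 and 10 (mean 31.3 CPM). ANCs had 3 and 1 reads (mean 9.29 CPM), APCs 10 and 1 (mean 18.8 CPM) and heifers 6, 4 and 2 (mean 15 CPM). In the 8 comparisons the groups overlapped except ANCs with TCs at weeks 5 and 6, where the exact permutation test gave p = 0.2 and 27.1% of 225 miRNAs did not overlap. It passed the filter on low reads in 2 of 8 comparisons, with limma log2 fold changes of 0.17 in APCs against heifers and 0.37 in all cow pools against heifers, whose adjusted p was 0.708. At this depth no difference of bta-miR-378b was detectable.

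**Figure D1:**
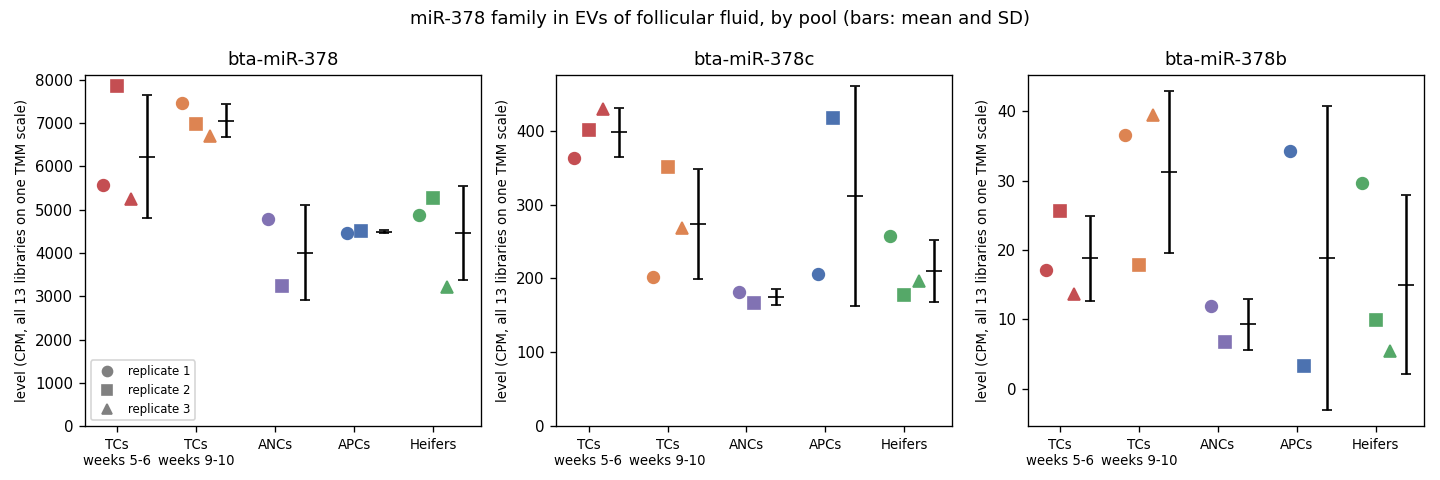
Levels of bta-miR-378, bta-miR-378c and bta-miR-378b (CPM on the common TMM scale, linear axes that differ between panels) in each pool; marker shape gives the replicate number, and the bars beside the points are the group mean and SD (3 pools for TCs and heifers, 2 for ANCs and APCs). The 3 TC pools at weeks 5 and 6 hold 363 to 429 CPM of bta-miR-378c and lie above all ANC and heifer pools, whereas the 2 APC pools, at 206 and 417 CPM, are far apart.

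The order of group means, from high to low, was TCs at weeks 9 and 10, TCs at weeks 5 and 6, APCs, heifers and ANCs for bta-miR-378. For bta-miR-378c it was TCs at weeks 5 and 6, APCs, TCs at weeks 9 and 10, heifers and ANCs. ANCs were lowest and heifers next for all 3 members. No neighbours in these orders differed beyond their spread, with exact two-sided permutation p values of 0.2 or more where the smallest possible was 0.1. TCs at weeks 5 and 6 and APCs did not overlap for bta-miR-378. That pair is not among the 8 comparisons, and the share of all miRNAs that did not overlap in it was not computed. A moderated F test of limma over the 5 groups gave an adjusted p of 0.307 for bta-miR-378, 0.299 for bta-miR-378c and 0.576 for bta-miR-378b. Of the 247 miRNAs in that test, 5 (2.02%) had an adjusted p of at most 0.25. With the replicate number as a block, the adjusted p was 0.154 for bta-miR-378 and 0.216 for bta-miR-378c, and 125 of 247 miRNAs passed. Scaled by total reads it was 0.233 for bta-miR-378, with 74 of 247 passing. Without a single pool, 0 to 47 miRNAs passed.

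In each comparison a miRNA was called when its limma log2 fold change on log2(CPM + 5) was 1 or more in size, with p under 0.05 and adjusted p of at most 0.25, which are the limits that the study chose. By this rule limma called no member in any of the 8 comparisons. At an unadjusted p under 0.05, limma passed bta-miR-378c in 2 comparisons and bta-miR-378 in 0. The count tests on the recovered reads called bta-miR-378c in 1 comparison (DESeq2) and in 0 (edgeR), and bta-miR-378 in 0.

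TCs at weeks 5 and 6 against heifers asked how early lactation in negative energy balance differs from the heifer state. bta-miR-378c was 1.88-fold higher in TCs (log2 fold change 0.91, SE 0.274, 95% interval 0.26 to 1.56, limma adjusted p = 0.222). All 3 TC pools were above all 3 heifer pools. It was not called because the fold was under the limit. Of all 230 miRNAs tested, 6.96% were called, 17.4% had p under 0.05 and 22.2% did not overlap between the groups, so separate values of this kind were common. The 16 calls fell to 0 without TC pool 1, TC pool 3, heifer pool 1 or heifer pool 2, and were 46 without TC pool 2 and 29 without heifer pool 3. bta-miR-378 had a log2 fold change of 0.49 (SE 0.298, 95% interval -0.22 to 1.19, limma adjusted p = 0.429) and overlapped. With the replicate number as a block, which raised the calls from 16 to 29, bta-miR-378c had an adjusted p of 0.0926 and was still under the fold limit. bta-miR-378c was called without TC pool 2 (log2 fold change 1.04, limma adjusted p = 0.123), where 46 of 236 miRNAs were called, and by DESeq2 (1.014, adjusted p = 0.0841), where 36 of 230 were. Its limma adjusted p was above the limit of 0.25 without TC pool 1 (0.531), TC pool 3 (0.376), heifer pool 1 (0.48) and heifer pool 2 (0.504), and 0.238 without heifer pool 3.

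ANCs against TCs at weeks 5 and 6 set 2 kinds of cows in negative balance side by side. bta-miR-378c was 0.442 times as high in ANCs (log2 fold change -1.18, SE 0.364, 95% interval -2.04 to -0.32), and both ANC pools were below all 3 TC pools. Its limma adjusted p was 0.399, so it was not called. bta-miR-378 was also lower in both ANC pools than in all TC pools, with a log2 fold change of -0.65 (SE 0.37, limma adjusted p = 0.582). limma called 0 of the 225 miRNAs, where 18 (8%) had p under 0.05, 27.1% did not overlap, and edgeR and DESeq2 called 0. Without ANC pool 2 limma called 7. This comparison and the one against heifers rest on the same 3 TC pools.

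Within TCs, weeks 9 and 10 against weeks 5 and 6 set positive against negative balance, in the same or in different cows. Balance and time after calving cannot be told apart here. The means of the main members moved apart in direction, with bta-miR-378c at a log2 fold change of -0.55 (SE 0.373, 95% interval -1.40 to 0.30, limma adjusted p = 0.617) and bta-miR-378 at 0.22 (SE 0.304, 95% interval -0.47 to 0.91, limma adjusted p = 0.797). The pools did not overlap for bta-miR-378c (exact permutation p = 0.1, the smallest possible), as for 13.4% of 224 miRNAs. Its log2 fold change was -0.30 without pool 1 of weeks 9 and 10. limma called 0 of these miRNAs, with 12 (5.36%) at p under 0.05, while edgeR called 0 and DESeq2 1. Without pool 2 of weeks 5 and 6 limma called 22.

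ANCs against APCs compared lasting negative with lasting positive balance. bta-miR-378c had a log2 fold change of -0.70 (SE 0.498, 95% interval -1.97 to 0.58, limma adjusted p = 0.627), and its pools did not overlap, like those of 43.5% of 207 miRNAs. The value rested on a single pool, at -1.15 without APC pool 1 and -0.24 without APC pool 2. With 2 pools a group, the exact permutation p of 0.333 is the smallest possible. bta-miR-378 had a log2 fold change of -0.15 (limma adjusted p = 0.871), a direction that turned to 0.25 when libraries were scaled by total reads. In this comparison limma called 0 miRNAs (17, or 8.21%, at p under 0.05), edgeR 0 and DESeq2 6. limma called 36 without APC pool 1, 7 without APC pool 2 and 21 without ANC pool 2.

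Against heifers, ANCs and APCs gave intervals on both sides of zero for the main members. In ANCs the log2 fold change was -0.16 for bta-miR-378c (95% interval -0.99 to 0.68) and -0.06 for bta-miR-378 (-0.88 to 0.77), and both overlapped with heifers. Of 215 miRNAs, 18.6% were called, 21.9% had p under 0.05 and 47.4% did not overlap. These 40 calls became 6 without heifer pool 1, 17 without heifer pool 2 and 54 without heifer pool 3. In APCs it was 0.64 for bta-miR-378c (SE 0.411, 95% interval -0.34 to 1.62, limma adjusted p = 0.469), and it overlapped with heifers. Of 233 miRNAs, 12.4% were called, 16.3% had p under 0.05 and 36.1% did not overlap. These 29 calls became 48 without APC pool 1, 45 without APC pool 2, 3 without heifer pool 1 and 46 without heifer pool 3. The value of bta-miR-378c rested on a single APC pool: it was 1.10, and called, without APC pool 1 (limma adjusted p = 0.216) and 0.18 without APC pool 2. bta-miR-378 in APCs had a log2 fold change of 0.20 (95% interval -0.65 to 1.05), which became -0.39 when scaled by total reads and -0.15 with the deposited values as they are.

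Sorted by energy balance at collection, the 5 cow pools in negative balance averaged 309 CPM of bta-miR-378c and the 5 in positive balance 289 CPM. The log2 fold change was 0.00 (SE 0.351, 95% interval -0.76 to 0.77; exact permutation p = 0.913 with 0.00794 the smallest possible). bta-miR-378 averaged 5340 CPM in negative and 6030 CPM in positive balance (log2 fold change -0.24, 95% interval -0.83 to 0.35). limma called 0 of 221 miRNAs, with 3 (1.36%) at p under 0.05, while edgeR called 0 and DESeq2 2, and limma called 2 without TC pool 3 of weeks 5 and 6. In all 10 cow pools against heifers, the log2 fold change was 0.43 for bta-miR-378c (95% interval -0.28 to 1.14, limma adjusted p = 0.521) and 0.34 for bta-miR-378 (-0.25 to 0.92, limma adjusted p = 0.533), and both overlapped. Of 239 miRNAs, 6.28% were called, 14.6% had p under 0.05 and 4.6% did not overlap. These 15 calls became 8 without TC pool 1 of weeks 5 and 6 or without ANC pool 2, and 7, 0 and 24 without heifer pools 1, 2 and 3, respectively. These 2 comparisons join groups of unlike cows, and the comparisons above share their pools.

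**Figure D2:**
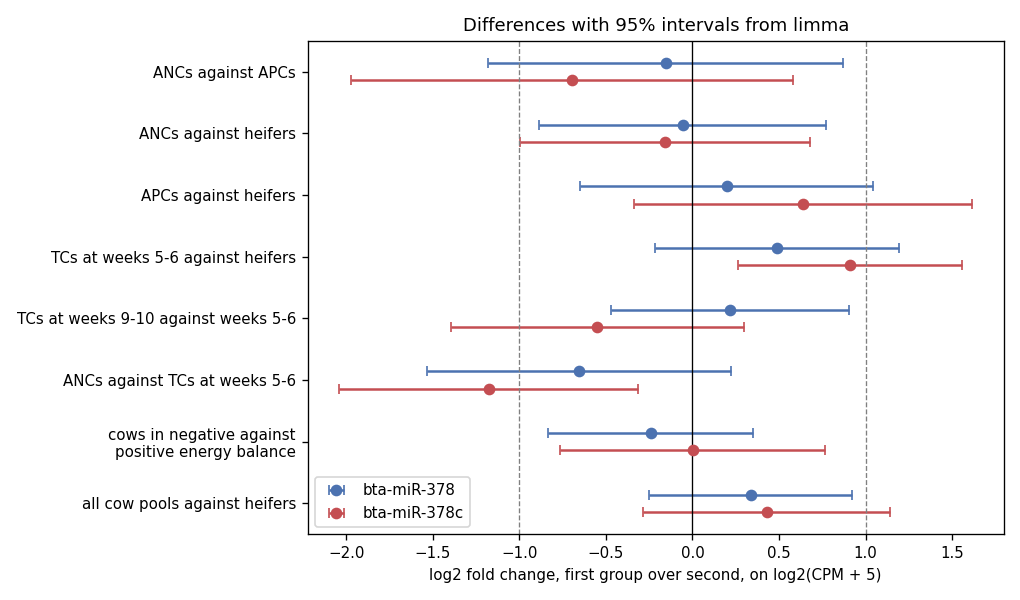
Log2 fold changes of bta-miR-378 (blue) and bta-miR-378c (red) in the 8 comparisons, first group over second, on log2(CPM + 5), with 95% intervals from limma; dashed lines mark the fold limit of 1 in either direction. The interval of bta-miR-378c lies wholly on one side of zero in TCs at weeks 5 and 6 against heifers (0.26 to 1.56) and in ANCs against TCs at weeks 5 and 6 (-2.04 to -0.32).

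The share of bta-miR-378c in the reads of bta-miR-378 and bta-miR-378c does not depend on the scaling between libraries. It was 6.12%, 4.85% and 7.57% in TCs at weeks 5 and 6 (mean 6.18% ± 1.36, SD, n = 3). At weeks 9 and 10 it was 2.63%, 4.79% and 3.84% (mean 3.75% ± 1.08, SD, n = 3), so the TC pools of the 2 times did not overlap. However, the lowest pool of the early weeks (4.85%, exact binomial 95% interval 4.10 to 5.70) and the highest of the late weeks (4.79%, interval 3.90 to 5.80) could not be told apart by counting error alone. The difference of -2.43 percentage points had an exact permutation p of 0.1, the smallest possible, and 0.703 after adjustment over 8 comparisons. The share was 3.67% and 4.91% in ANCs, 4.40% and 8.46% in APCs and 5.01%, 3.25% and 5.77% in heifers. In the other 7 comparisons the groups overlapped. The 2 APC pools had the widest gap within a group, and their intervals (3.38 to 5.63 and 7.09 to 10.0) did not meet. Intervals cover counting error only.

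**Figure D3:**
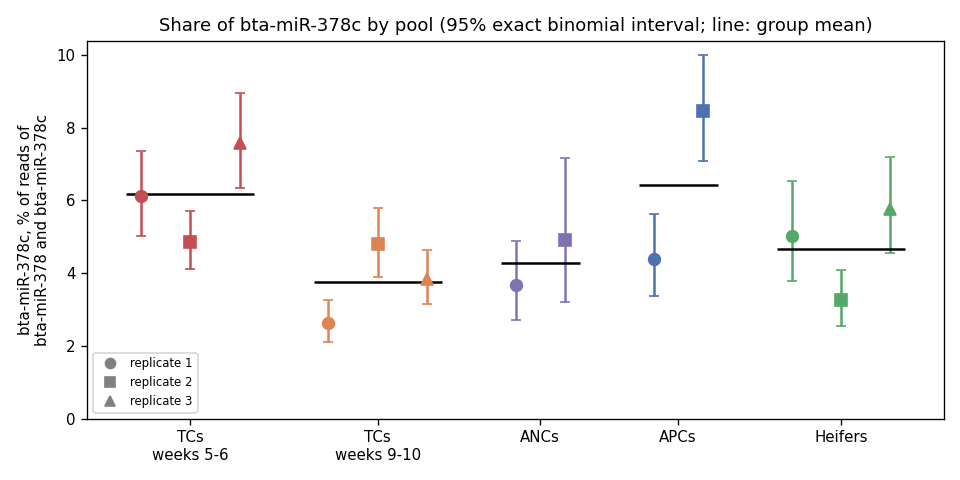
Share of bta-miR-378c in the reads of bta-miR-378 and bta-miR-378c in each pool (percent, linear axis from 0), with exact binomial 95% intervals as bars and group means as black lines. TC pools lie at 4.85% to 7.57% at weeks 5 and 6 and at 2.63% to 4.79% at weeks 9 and 10.

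Across the 13 pools, bta-miR-378 and bta-miR-378c had a Pearson r of 0.45 (Spearman rho 0.39) on log2(CPM + 5). bta-miR-378 and bta-miR-378b had an r of 0.66, and bta-miR-378b and bta-miR-378c 0.03. These are descriptions over pools that share their groups. Of 197 other miRNAs with a mean of at least 50 CPM, those most like bta-miR-378c were bta-miR-145 (r = 0.81), bta-miR-2285t (0.80), bta-miR-27a-3p (0.79), bta-miR-193a-5p (0.76) and bta-miR-375 (0.75). bta-miR-378 itself came in 26th place. Since these 5 were chosen for their likeness over the same pools, their levels are a description with no test. bta-miR-145, a miRNA of smooth muscle, stood at 2090 to 2890 CPM in TCs at weeks 5 and 6 and at 1080 to 1250 CPM in heifers. bta-miR-375, known from pancreatic islets, stood at 6330 to 13600 CPM in those TCs and 2650 to 5550 CPM in heifers. bta-miR-27a-3p, known from fat cell differentiation, stood at 970 to 1080 CPM in those TCs and 592 to 695 CPM in heifers. The ranges of bta-miR-193a-5p (1690 to 6670 CPM in those TCs, 994 to 1870 CPM in heifers) and bta-miR-2285t (59.7 to 155 CPM and 32.3 to 62.4 CPM) overlapped. Of 230 miRNAs, 22.2% did not overlap in that comparison. In APCs bta-miR-145, bta-miR-375 and bta-miR-27a-3p stood at 968 to 3390, 1190 to 14600 and 645 to 1600 CPM. In ANCs they stood at 666 to 1840, 2970 to 4290 and 269 to 556 CPM.

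**Figure D4:**
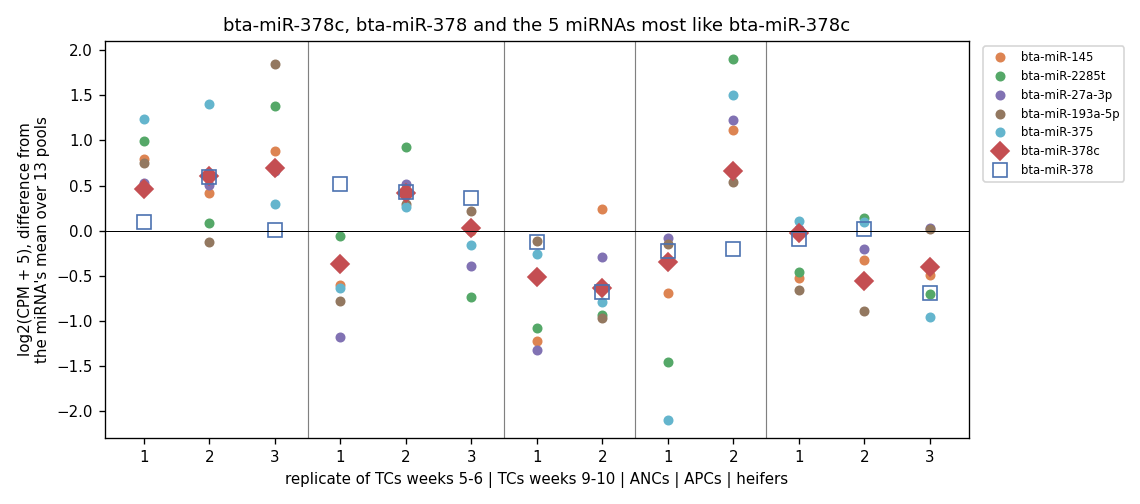
Difference of each pool from the miRNA's own mean over 13 pools, on log2(CPM + 5), for bta-miR-378c (red diamonds), bta-miR-378 (open squares) and the 5 miRNAs with the highest r with bta-miR-378c (dots); pools are set by group along the axis. bta-miR-378c lies above its mean in all 3 TC pools at weeks 5 and 6, in TC pools 2 and 3 at weeks 9 and 10 and in APC pool 2, and below it in TC pool 1 at weeks 9 and 10, APC pool 1, both ANC pools and all heifer pools.

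Of 6 other miRNAs reported to act on oestradiol synthesis in granulosa cells, 5 were listed and 4 tested. In ANCs against heifers 1 of 4 fell (bta-miR-132, log2 fold change -3.61), where 18.6% of all miRNAs were called, and in APCs against heifers 1 of 4 rose (bta-miR-320a, 2.37), where 12.4% were, with no call in the other 6 comparisons. bta-miR-132 stood at 73.6 to 95.1 CPM in ANCs and varied widely in heifers, at 959, 237 and 6420 CPM in pools 1, 2 and 3. bta-miR-320a, the most abundant, stood at 136000 to 159000 CPM in APCs and 20200 to 54400 CPM in heifers. bta-miR-224, known to act on oestradiol release by granulosa cells, stood at 1260 to 2030 CPM in TCs at weeks 5 and 6 and 1780 to 2390 CPM in heifers and was not called. The median of the list in TCs at weeks 5 and 6 against heifers was -0.23, beside -0.03 over all miRNAs.

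Of 13 miRNAs of glucose and lipid metabolism, all were listed and 12 tested. In TCs at weeks 5 and 6 against heifers, 2 of 12 rose and 0 fell, where 6.96% of all miRNAs were called: bta-miR-130a (log2 fold change 2.03, limma adjusted p = 0.222), known to restrain PPARG, and bta-miR-375 (1.23, limma adjusted p = 0.243), which is also among those chosen as most like bta-miR-378c. The list also holds bta-miR-27a-3p, another of those chosen. Its medians are therefore in part those of miRNAs chosen for their likeness to bta-miR-378c over the same pools. The list's median was 0.61 in TCs at weeks 5 and 6 against heifers, beside -0.03 over all miRNAs. In TCs at weeks 9 and 10 against weeks 5 and 6 it was -0.72 (0 called), beside -0.05. In ANCs against TCs at weeks 5 and 6 it was -0.64 (0 called), beside -0.09. It was -0.44 in ANCs against APCs and 0.39 in APCs against heifers, beside -0.01 and 0.03. It was 0.19 in ANCs against heifers and 0.37 in all cow pools against heifers, beside 0.00 and -0.03. In negative against positive energy balance it was 0.22, beside -0.05. bta-miR-378c itself had -0.16 in ANCs against heifers and 0.00 in negative against positive balance. In APCs against heifers (12.4% of all miRNAs called) 3 of 12 rose, namely bta-miR-130a (2.67), and bta-miR-103 (2.16) and bta-miR-107 (2.41), near-identical miRNAs of insulin sensitivity. In ANCs against heifers 1 of 12 fell, a share below the 18.6% of all miRNAs called, the liver miRNA bta-miR-122 (-3.31), which also fell in all cow pools against heifers, where bta-miR-130a rose (2 of 12, beside 6.28%). bta-miR-143, the most abundant of the list, had a log2 fold change of 0.26 in TCs at weeks 5 and 6 against heifers (limma adjusted p = 0.743). The miRNAs named among those called were picked by their calls.

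Marker miRNAs of other cell types were summed in the same groups, and limma called none of them in ANCs against TCs at weeks 5 and 6, where it called 0 of 225 miRNAs. Skeletal muscle, where miR-378 is abundant, is marked by bta-miR-1, bta-miR-133a, bta-miR-206 and bta-miR-499 (4 of 5 on the list), which summed to 339.3 to 435.2 CPM in TCs at weeks 5 and 6, 356.6 to 515.5 CPM in ANCs and 596.7 to 994.6 CPM in heifers. Most of the sum was bta-miR-1, the 1 of 4 that was called in TCs at weeks 5 and 6 against heifers (log2 fold change -1.10). bta-miR-206 was lower in all 3 TC pools (13.7 to 59.7 CPM) than in heifers (59.9 to 151 CPM) and was not called there. bta-miR-133a overlapped. bta-miR-499 was higher in all 3 TC pools (39.8 to 48.1 CPM) than in heifers (18.9 to 30.0 CPM) and was not called (log2 fold change 0.75, limma adjusted p = 0.28). Of 230 miRNAs, 22.2% did not overlap in this comparison. bta-miR-206 was called down in ANCs against heifers (1 of 3 tested, beside 18.6% of all miRNAs). Both bta-miR-206 and bta-miR-1 were called down in all cow pools against heifers (2 of 4, beside 6.28%). bta-miR-133a, bta-miR-206 and bta-miR-499 fell to 2 or 3 reads in their lowest library. Leukocyte markers (6 of 6) summed to 2762 to 3063 CPM in TCs at weeks 5 and 6, 744.8 to 1580 CPM in ANCs and 4868 to 6077 CPM in heifers. Red blood cell markers (2 of 3 on the common scale) summed to 750.5 to 5583 CPM, 130.7 to 1145 CPM and 1717 to 3958 CPM in these groups, with bta-miR-451 at 0 in 1 library. The liver miRNA bta-miR-122 stood at 4212 to 5712 CPM, 328.8 to 2926 CPM and 5369 to 17620 CPM. In ANCs against heifers limma called 5 of 5 tested leukocyte markers and 2 of 2 red blood cell markers down, beside 18.6% of all miRNAs called. In TCs at weeks 5 and 6 against heifers it called 3 of 5 leukocyte markers down, beside 6.96%. The remaining leukocyte marker, bta-miR-142-3p, was not tested there and stood at 7.92 and 46.9 CPM in ANCs and 9.88 to 21.6 CPM in heifers. Follicle somatic cell miRNAs (6) overlapped between TCs at weeks 5 and 6 (5100 to 9971 CPM) and heifers (5108 to 14390 CPM) and stood at 10390 and 10410 CPM in ANCs. This sum joins members that went opposite ways. In ANCs against heifers 1 of 6 was called down (bta-miR-132) and 2 up (bta-miR-424-5p and bta-miR-542-5p). Most of the sum in ANCs was bta-miR-202 (7016 and 8014 CPM), and heifer pool 3 held 6420 CPM of bta-miR-132. The part of all these marker miRNAs in the levels of the miR-378 family was not tested, and fewer vesicles of a cell type cannot be told apart from less of a miRNA per vesicle.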

How the data were processed

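EV-coupled small RNA was sequenced by the authors from 13 pools. According to their notes, reads were trimmed (Cutadapt 1.11), mapped to UMD 3.1 (Bowtie2 2.2.2), annotated with miRBase and TMM-normalized with edgeR. The deposited values are TMM-normalized CPM, not logged. For 7 libraries, whose totals exceed those of CPM, the same deposited unit was recorded as signal. miRNAs that a group does not list were not analysed for it. The spacing of values gave back whole reads (3009 of 3009 values up to 1000 reads were whole within 0.1 read).

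For each comparison, TMM factors (edgeR 4.0.16) were computed over miRNAs listed for its groups, low miRNAs were filtered (filterByExpr, minimum 10, total 15) and limma 3.58.1 (trend) was fitted to log2(CPM + 5), with Benjamini-Hochberg adjustment over all miRNAs tested. Fold changes of low miRNAs are understated on this scale. Single values had exact two-sided permutation tests. The members, the lists (oestradiol, energy, cell type markers) and the tests were chosen with earlier results of these data known. Named were the members, the 5 miRNAs most like bta-miR-378c, the 3 most abundant of a list and those called. Same-numbered pools of TCs at weeks 5 and 6 and heifers deviated together (r = 0.216, 0.377 and 0.385). The replicate number was also used as a block in all 8 comparisons and in the F test. Alternatives were other scalings, pseudocounts (1 and 20 CPM), no filter, edgeR, DESeq2 1.42.0, deposited values, a joint fit and leaving out each pool.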

Additional observations from a re-analysis of the deposited data

How the results depend on the processing

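Of 376 alternative values for 26 results, 353 kept their direction and side of the limits, 17 changed sign and 6 passed a limit that the reported value did not. The limit for the share was an exact permutation p under 0.05. In the 6 comparisons between 2 groups the smallest possible p was at least 0.1, so no alternative of the share could pass it there. In ANCs against APCs the deposited values gave the same fold changes as the main fit. Scaling by total reads moved the median log2 fold change of all miRNAs from -0.01 to 0.40 in ANCs against APCs and from 0.03 to -0.54 in APCs against heifers. It turned bta-miR-378 to 0.252 in ANCs against APCs and to -0.39 in APCs against heifers, where the deposited values gave -0.154 (median of all miRNAs -0.32). Leaving out each pool gave -0.416 to 0.103 for bta-miR-378 in ANCs against APCs and -0.255 to 0.188 in ANCs against heifers. For bta-miR-378c it gave 0.179 to 1.098 in APCs against heifers and 0.813 to 1.114 in TCs at weeks 5 and 6 against heifers, where DESeq2 gave 1.014 and called it. bta-miR-378c in negative against positive energy balance was -0.037 with the deposited values, -0.084 in a joint fit of all libraries and -0.154 to 0.187 without each pool. The adjusted p over 5 groups was 0.233 with total reads for bta-miR-378, and leaving out a pool gave 0.297 to 0.497 for bta-miR-378 and 0.285 to 0.497 for bta-miR-378c. For the share, leaving out a pool gave -1.1 to 0.234 percentage points in ANCs against heifers, -0.275 to 3.79 in APCs against heifers and -0.266 to 0.992 in all cow pools against heifers. The cause of these changes was not tested.

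With the replicate number as a block, the adjusted p over 5 groups was 0.154 for bta-miR-378 and 0.216 for bta-miR-378c, both past the limit of 0.25, as for 125 of 247 miRNAs (5 without the block). In TCs at weeks 5 and 6 against heifers the block gave bta-miR-378 an adjusted p of 0.136 at a log2 fold change of 0.487, under the fold limit. No label says that same-numbered pools share more than a number, in this comparison or in others. In the other comparisons where it was computed, their r was -0.1 to 0.216, and the block called no member. The block raised the calls over all miRNAs from 0 to 28 in ANCs against APCs and from 40 to 65 in ANCs against heifers. A covariate for the day on which RNA was measured, chosen after seeing the data, gave bta-miR-378c 0.912 in TCs at weeks 5 and 6 against heifers (adjusted p = 0.358) and called no member. With this covariate limma called 0 of 230 miRNAs in that comparison, beside 16 without it. The calls there of bta-miR-130a, bta-miR-375 and bta-miR-1, and of the leukocyte markers bta-miR-146a, bta-miR-155 and bta-miR-223, were thus lost too. In ANCs against heifers it called 42 of 215, beside 40 without it. With 25 to 141 reads of bta-miR-378c and 2 or 3 pools a group, depth and pool number limit all these values.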
